A study of Homo sapiens with 30 samples.

Results

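PANC-1 and MiaPaCa2 are long-used human lines grown from pancreatic ductal adenocarcinoma (PDAC), and their transcriptomes were compared under a control siRNA. The comparison used 6 of the 30 libraries of the series, 3 of PANC-1 and 3 of MiaPaCa2, chosen by their labels as siControl libraries. The other 24 libraries, 3 per line and siRNA (siDDX60L, siMYEOV, siKCNN4 or siS100A16), served to see where the same line difference was found again. All libraries therefore came from transfected cells, and neither line was measured here without a transfection. Each line is a single culture lineage grown from a tumour, so a difference between them describes these lines and not a class of tumours. Whether the 3 replicates of a line were cultured or transfected apart is not in the labels, although the methods speak of independent repeats. All p values therefore rest on the spread among 3 libraries per line, which may be technical. Of 24895 entries in the table, 11227 genes had a mean of at least 1 FPKM (fragments per kilobase and mapped total) over the 6 libraries, lay on a known chromosome other than X or Y, and were tested.

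PDAC arises from the exocrine pancreas, whose duct cells are held together by tight junctions and by E-cadherin, and express keratins 7, 8, 18 and 19. Carcinoma lines lie at different points between an epithelial program, with these junctions, and a mesenchymal program, with vimentin, N-cadherin and secreted matrix. Many PDAC carry lesions in CDKN2A and the TGF-beta pathway, and the chemokines, interferon response and metabolism of such lines vary widely.

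The summed FPKM was 386200 to 390300 in PANC-1 libraries and 395900 to 404200 in MiaPaCa2 libraries. Between 12354 and 12467 genes exceeded 1 FPKM in PANC-1, and between 11570 and 11625 in MiaPaCa2. The mitochondrial share of the FPKM was 13.57 to 14.23% in PANC-1 and 13.37 to 14.22% in MiaPaCa2. Across the tested genes, libraries of the same line correlated with r between 0.9868 and 0.9905, and libraries of different lines with r between 0.7701 and 0.7742. These r are across genes, which are not independent replicates. The number of reads behind an FPKM value is unknown, so no counting interval is given.

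The labelled cell type was checked against epithelial markers. KRT8, a keratin of simple epithelia, had 1522, 1636 and 1454 FPKM in PANC-1, against 1036, 1160 and 1034 FPKM in MiaPaCa2. KRT18, its partner keratin, had 1023, 1017 and 986 FPKM in PANC-1, against 877, 887 and 893 FPKM in MiaPaCa2. Both lines thus expressed keratins of simple epithelia. EPCAM and CDH1 were measured in PANC-1 and listed at 0 in every MiaPaCa2 siControl library, so 2 defining epithelial markers were absent from the MiaPaCa2 values. None of the 19 acinar markers on known autosomes passed the filter, and PTF1A, the acinar transcription factor, was listed at 0 in all 6 libraries. Markers of other cell types were few. The 15 leukocyte markers summed to 36.96 to 40.25 FPKM in PANC-1 and 13.99 to 17.94 in MiaPaCa2, and 1 of them was tested, CD68, a lysosomal protein. The 12 fibroblast markers summed to 10.8 to 12.6 FPKM in PANC-1 and 73.8 to 79.9 in MiaPaCa2, where COL1A2 gave most of the sum. The 8 endothelial markers summed to 2.47 to 3.05 FPKM in PANC-1 and 6.47 to 6.83 in MiaPaCa2. In bulk RNA, fewer cells of a type and less RNA per cell cannot be told apart.

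Of the 11227 genes, 2980 (26.5%) differed between the lines, at an adjusted p below 0.05 from limma and an absolute difference of at least 1 on the log2(FPKM + 1) scale. PANC-1 was higher for 1874 (16.7%) and lower for 1106 (9.85%). A difference of at least 3 on this scale was reached by 240 genes higher and 92 lower in PANC-1, and one of at least 5 by 38 and 16. The 3 libraries of a line lay wholly above or below the 3 of the other for 8957 genes (79.8%), and the adjusted p alone was below 0.05 for 8633. These background shares are those against which each gene list is read. The median difference over all tested genes was 0.07, with a median standard error (SE) of 0.076 per gene. Where a gene is listed at 0 in all 3 libraries of a line, its fitted difference depends on the pseudocount, so only the levels and the adjusted p are given.

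**Figure D1:**
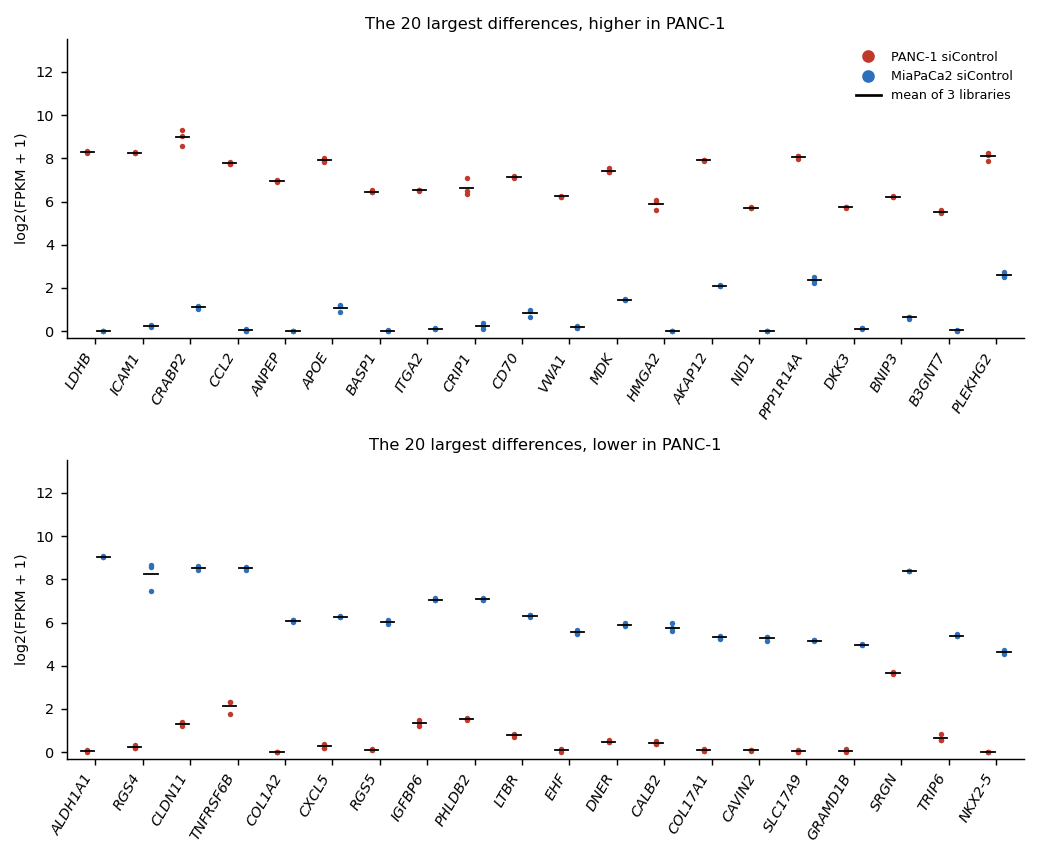
Levels of the 20 genes with the largest positive and the 20 with the largest negative line difference, as log2(FPKM + 1). Red points are the 3 PANC-1 siControl libraries, blue points the 3 MiaPaCa2 siControl libraries and black bars the means. The lines do not overlap for any of these genes, and LDHB, HMGA2, COL1A2 and NKX2-5 are listed at 0 in every library of 1 line.

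The largest differences included enzymes, surface molecules and secreted factors that were near 0 in 1 line. LDHB, the lactate dehydrogenase subunit that favours lactate use, had 307, 309 and 320 FPKM in PANC-1 and was listed at 0 in all 3 MiaPaCa2 libraries (adjusted p = 1.4e-09). The gene (LDHB, ENSG00000111716) is on the minus strand of chromosome 12, at 21788276 to 21910791 in GRCh37. In the 24 libraries of the other siRNAs it ranged from 180.2 to 334.4 FPKM in PANC-1 and from 0 to 0.382 FPKM in MiaPaCa2. ICAM1, the adhesion molecule that binds leukocyte integrins, had 310, 307 and 305 FPKM in PANC-1, against 0.209, 0.178 and 0.152 FPKM in MiaPaCa2 (log2 difference 8.03 ± 0.045 SE, adjusted p = 1.4e-09). CRABP2, which carries retinoic acid to the nucleus, had 633, 382 and 523 FPKM in PANC-1, against 1.19, 1.04 and 1.25 FPKM in MiaPaCa2 (7.86 ± 0.17, adjusted p = 1e-07). CCL2, the chemokine that attracts monocytes, had 214, 226 and 215 FPKM in PANC-1, against 0, 0.0761 and 0 FPKM in MiaPaCa2 (7.74 ± 0.056, adjusted p = 4e-09).

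Further genes of this group fell into several functions. ANPEP, the aminopeptidase CD13 of the cell surface, had 126.5, 120.0 and 122.5 FPKM in PANC-1, against 0, 0.014 and 0 FPKM in MiaPaCa2 (6.95). APOE, the apolipoprotein, averaged 240.4 ± 16 FPKM in PANC-1 and 1.14 ± 0.27 FPKM in MiaPaCa2 (SD, n = 3 each, as in all values with ± that name FPKM). Growth factors and ligands were MDK (midkine, log2 difference 5.96), CD70 (a TNF family ligand, 6.29) and DKK3 (a secreted Dickkopf family protein, 5.61). Basement membrane and matrix genes were NID1 (nidogen, 5.71), VWA1 (6.06) and the collagen receptor subunit ITGA2 (6.42). Scaffold and cytoskeletal regulators were BASP1 (6.44), AKAP12 (5.79), PPP1R14A (an inhibitor of myosin phosphatase, 5.70), PLEKHG2 (a guanine nucleotide exchange factor, 5.48) and CRIP1 (6.40). BNIP3, a mitophagy receptor induced by hypoxia, was at 5.58 and the glycosyltransferase B3GNT7 at 5.50. HMGA2, an architectural chromatin protein of embryonic and tumour cells, had 67.2, 62.2 and 48.3 FPKM in PANC-1 and was listed at 0 in MiaPaCa2.

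In the opposite direction the largest difference was in ALDH1A1, the retinaldehyde dehydrogenase that makes retinoic acid. ALDH1A1 had 0.0252, 0.0606 and 0 FPKM in PANC-1, against 524, 528 and 532 FPKM in MiaPaCa2 (−9.01 ± 0.045, adjusted p = 1.4e-09). The gene (ALDH1A1, ENSG00000165092) is on the minus strand of chromosome 9, at 75515587 to 75695358 in GRCh37. The enzyme that makes retinoic acid and CRABP2, which binds it, thus differed in opposite directions. RGS4, a brake on G protein signalling, had 0.15, 0.153 and 0.277 FPKM in PANC-1, against 404, 383 and 176 FPKM in MiaPaCa2 (−7.98 ± 0.31), and its relative RGS5 was at −5.90. CLDN11, a tight junction claudin, had 1.64, 1.54 and 1.3 FPKM in PANC-1, against 390, 348 and 379 FPKM in MiaPaCa2 (−7.23). TNFRSF6B, a secreted decoy receptor for FAS ligand, was at −6.37, and LTBR, the lymphotoxin beta receptor, at −5.54.

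The other strongly lower genes had varied functions. COL1A2, a chain of type I collagen, was listed at 0 in PANC-1 and had 63.7, 68.7 and 68.4 FPKM in MiaPaCa2. COL17A1, the hemidesmosome collagen, averaged 0.0649 ± 0.036 FPKM in PANC-1 and 38.6 ± 1.7 FPKM in MiaPaCa2 (−5.22). The ETS factor EHF, which is found in epithelia, was at −5.46, the calcium-binding calretinin CALB2 at −5.35, the NOTCH ligand DNER at −5.42 and the growth factor carrier IGFBP6 at −5.70. SRGN, the proteoglycan core serglycin, had 11.6, 12.1 and 11.2 FPKM in PANC-1, against 335, 338 and 334 FPKM in MiaPaCa2 (−4.73). NKX2-5, a homeobox factor of the heart, was listed at 0 in PANC-1 and averaged 23.9 ± 1.3 FPKM in MiaPaCa2. PHLDB2 (−5.56), TRIP6 (−4.73), CAVIN2 (a caveolar coat protein, −5.18), the vesicular nucleotide transporter SLC17A9 (−5.13), GRAMD1B (−4.90) and the chemokine CXCL5 (−5.99) completed the 20. All 40 genes of the plot of the largest differences were called in the same direction under each of the 4 other siRNAs.

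Genes at or below 0.1 FPKM in all 3 libraries of 1 line and at or above 5 FPKM in all 3 of the other were counted as a description. There were 129 such genes on in PANC-1, of which 48 were listed at 0 in all 3 MiaPaCa2 libraries, and 27 on in MiaPaCa2, of which 9 were listed at 0 in all 3 PANC-1 libraries. All were protein-coding. In PANC-1 the 10 with the highest level were LDHB, CCL2, ANPEP, ITGA2, BASP1, HMGA2, NID1, B3GNT7, the carboxylesterase CES1 (43.8 FPKM) and the homeobox factor BARX1 (42.2 FPKM). In MiaPaCa2 they were ALDH1A1, COL1A2, CAVIN2, SLC17A9, GRAMD1B, NKX2-5, DDIT4L (22.1 FPKM), the kallikrein KLK6 (19.7 FPKM), the collagen chain COL6A3 (16.5 FPKM) and ADTRP (15.8 FPKM). The same pattern, with the same limits, held in all 24 libraries of the other siRNAs for 54 of the 129 genes and 5 of the 27.

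The promoters of LDHB and ALDH1A1 are shown because these genes had the highest levels in each direction of that pattern. The windows are those of RefSeq on GRCh38.p14, from 250 bases before to 50 bases after the start of the gene, on the minus strand for both. Capitals mark CG dinucleotides. The LDHB window (chr12:21657793-21658092) holds 14 of them at 59.0% G and C, and the ALDH1A1 window (chr9:72953004-72953303) holds 7 at 40.3% G and C.
LDHB: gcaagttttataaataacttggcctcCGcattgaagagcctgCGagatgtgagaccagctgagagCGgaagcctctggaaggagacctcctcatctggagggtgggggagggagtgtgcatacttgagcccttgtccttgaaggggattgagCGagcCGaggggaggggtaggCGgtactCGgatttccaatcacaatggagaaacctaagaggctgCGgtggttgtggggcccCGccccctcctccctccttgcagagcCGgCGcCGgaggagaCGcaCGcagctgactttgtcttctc
ALDH1A1: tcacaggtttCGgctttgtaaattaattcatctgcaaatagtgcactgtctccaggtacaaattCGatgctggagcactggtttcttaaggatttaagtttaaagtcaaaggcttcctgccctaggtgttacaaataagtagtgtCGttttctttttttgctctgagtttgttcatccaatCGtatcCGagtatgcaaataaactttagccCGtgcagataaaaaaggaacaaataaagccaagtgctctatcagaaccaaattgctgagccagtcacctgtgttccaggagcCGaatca

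Promoter windows were matched by symbol for 88 of the 129 genes on in PANC-1 and 18 of the 27 on in MiaPaCa2. The median G and C content was 66.0% over the 120 windows of the PANC-1 genes and 54.8% over the 20 windows of the MiaPaCa2 genes. The median ratio of observed to expected CG was 0.779 for the PANC-1 genes and 0.481 for the MiaPaCa2 genes. Over all 33725 autosomal windows these medians were 58.7% and 0.581, and over the 13053 windows of tested genes 65.3% and 0.826. These are descriptions of sequence, and DNA methylation was not measured.

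Genes of epithelial junctions were more often higher than lower in PANC-1. Of 38 tested epithelial junction genes, 24 were higher and 1 was lower, with a median difference of 1.32. CDH1, which encodes E-cadherin, had 5.8, 5.1 and 5.95 FPKM in PANC-1 and was listed at 0 in MiaPaCa2 (adjusted p = 1.7e-07). EPCAM, an epithelial adhesion molecule, had 5.05, 6.1 and 5.54 FPKM in PANC-1 and was listed at 0 in MiaPaCa2 (adjusted p = 2.4e-07). E-cadherin mRNA was therefore measured at a low level in PANC-1 only. SPINT2, a protease inhibitor of epithelial surfaces, had 329, 379 and 338 FPKM in PANC-1, against 13.7, 16.3 and 14.8 FPKM in MiaPaCa2 (4.45 ± 0.082).

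The claudins CLDN7 and CLDN3 were higher in PANC-1, whereas CLDN11, described above and not in this list, was lower. CLDN7 had 18.9, 22.3 and 18.0 FPKM in PANC-1, against 0.0636, 0 and 0.0465 FPKM in MiaPaCa2 (4.32), and CLDN3 was at 3.24. The desmosomal plakoglobin JUP had 78.9, 78.2 and 77.0 FPKM in PANC-1, against 8.61, 9.11 and 9.56 FPKM in MiaPaCa2 (2.97). Periplakin (PPL, 4.08), the epithelial splicing regulator ESRP2 (3.28) and the gap junction protein GJA1 (3.13) were also higher. CTNNA1, alpha-catenin, overlapped between the lines (0.05 ± 0.14, adjusted p = 0.77). CLDN4 was not called and its PANC-1 libraries were far apart, with 3.21, 112 and 237 FPKM in PANC-1, against 78.1, 89.0 and 84.4 FPKM in MiaPaCa2.

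The promoter of CLDN7 is shown since its window holds 5 of the E-box words CACCTG or CAGGTG, which ZEB and SNAIL repressors of epithelial genes are known to bind. This is 1 of 2 CLDN7 windows, chr17:7262429-7262728 on GRCh38.p14 (RefSeq, minus strand), with the words in capitals on either strand.
CLDN7: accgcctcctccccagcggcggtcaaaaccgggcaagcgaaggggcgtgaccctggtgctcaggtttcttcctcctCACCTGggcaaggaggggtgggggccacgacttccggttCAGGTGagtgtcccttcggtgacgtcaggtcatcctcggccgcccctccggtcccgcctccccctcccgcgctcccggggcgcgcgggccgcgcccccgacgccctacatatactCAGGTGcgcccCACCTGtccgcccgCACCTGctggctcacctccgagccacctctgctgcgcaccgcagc
At least 1 such word stood in 10 of the 19 windows found for 13 of the 24 junction genes that were higher (52.6%), and in 13 of 34 windows of 22 of the 38 tested (38.2%). The share was 18.5% over the windows of all tested genes and 20.7% over all autosomal windows. A match describes the letters and not binding. ZEB1, whose protein binds such words, had 5.89, 5.52 and 5.77 FPKM in PANC-1, against 7.67, 6.42 and 7.02 FPKM in MiaPaCa2, and was not called (−0.25 ± 0.073, adjusted p = 0.016).

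Mesenchymal genes were also more often higher in PANC-1, so the lines did not separate as epithelial against mesenchymal. Of 33 tested mesenchymal genes, 18 were higher and 4 were lower, with a median of 1.20. MMP2, a gelatinase, had 39.5, 32.2 and 32.6 FPKM in PANC-1, against 0, 0.0229 and 0.0507 FPKM in MiaPaCa2 (5.12 ± 0.089). CTGF, a matrix-associated growth factor, averaged 95.4 ± 1.4 FPKM in PANC-1 and 2.37 ± 0.32 FPKM in MiaPaCa2 (4.84). SPARC, a matrix glycoprotein (16.1 ± 0.42 FPKM), and CDH2, N-cadherin (6.74 ± 0.96 FPKM), were measured in PANC-1 and listed at 0 in MiaPaCa2. PANC-1 libraries thus held mRNA of both E-cadherin and N-cadherin, and MiaPaCa2 was listed at 0 for both. Whether the same cells held both, or made the proteins, was not measured. TGFBI, a secreted matrix protein, was at 3.19 and the transcription factor FOXC2 at 3.72. VIM, vimentin, was high in both lines, with 2457, 2438 and 2544 FPKM in PANC-1, against 3294, 3534 and 3408 FPKM in MiaPaCa2, and was not called (−0.46 ± 0.044). CALD1, PDGFC, S100A4 and LOXL2 were the 4 lower members.

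**Figure D2:**
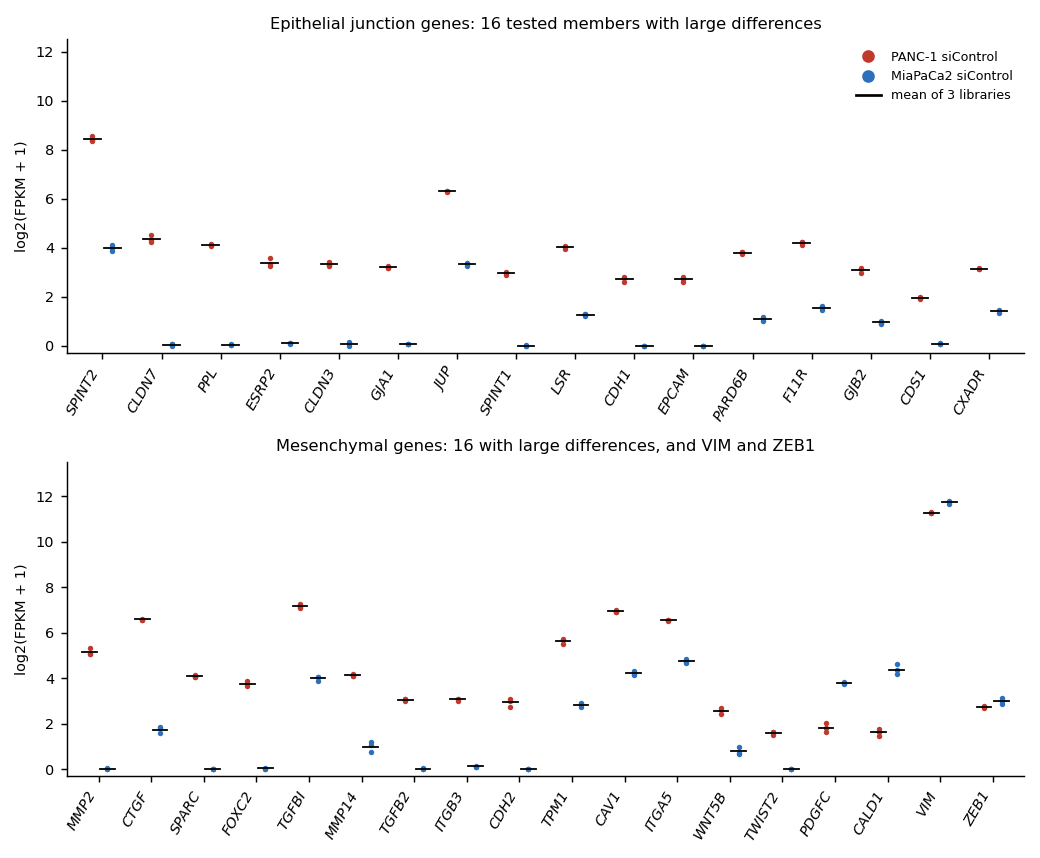
Levels of epithelial junction genes (top) and mesenchymal genes (bottom) as log2(FPKM + 1), with up to 16 tested members of each list that have large differences, and VIM and ZEB1 at the right of the lower panel. Red points are PANC-1 siControl libraries, blue points MiaPaCa2 siControl libraries and black bars means of 3 libraries. CDH1, EPCAM, SPARC and CDH2 lie at 0 in MiaPaCa2, while VIM lies above 11 in both lines.

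Among matrix receptors, 7 of 12 tested integrins were higher and 1 was lower (median 1.73). ITGA2 had 91.6, 89.1 and 93.1 FPKM in PANC-1, against 0.0694, 0.0939 and 0.0637 FPKM in MiaPaCa2. The vitronectin receptor subunits ITGAV (2.44), ITGB3 (2.95) and ITGB5 (3.45), the fibronectin receptor subunit ITGA5 (1.80) and the laminin receptor subunit ITGA6 (2.39) were higher as well. The lower member was ITGB4, also a laminin receptor subunit, at 23.1 ± 0.46 FPKM in PANC-1 and 54.6 ± 3.3 FPKM in MiaPaCa2 (−1.21). It kept its call under 1 of the 4 other siRNAs. ITGB1, the beta subunit that pairs with many alpha subunits, had 260, 297 and 333 FPKM in PANC-1, against 314, 282 and 314 FPKM in MiaPaCa2 (−0.04 ± 0.097, adjusted p = 0.74). ITGB1 thus overlapped between the lines, while 5 alpha subunits (ITGA2, ITGA3, ITGA5, ITGA6 and ITGAV) were higher. Laminins and collagens split, with 11 of 24 higher and 9 lower (median 0.37). Those higher included COL18A1, the source of endostatin (393 ± 4.7 FPKM in PANC-1 and 37.1 ± 2.6 in MiaPaCa2), COL9A3 (4.44), LAMA5 (2.39), and COL11A1 at 10.4 ± 0.27 FPKM in PANC-1 and listed at 0 in MiaPaCa2. Those lower included COL1A2, COL17A1 and COL6A3 (−4.02). COL1A1, the other chain of type I collagen, was higher, at 6.18 ± 0.86 FPKM in PANC-1 and 0.331 ± 0.18 FPKM in MiaPaCa2 (2.43). The 2 chains of type I collagen thus differed in opposite directions.

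Of 13 tested cadherins and protocadherins outside chromosome X, 8 were higher and 2 were lower (median 1.27), with PCDH7 at 2.54 and the giant cadherin FAT1 at 2.25. PCDH1 and CDH5, the cadherin of endothelium, were lower, both at −1.76. Matrix proteases and their inhibitors had 9 of 26 higher and 5 lower (median 0.17). MMP14, a membrane-bound collagenase that activates MMP2, had 16.1, 17.1 and 16.2 FPKM in PANC-1, against 1.3, 0.683 and 1.07 FPKM in MiaPaCa2 (3.13), and ADAMTS15 was at 4.10. PLAUR, the urokinase receptor, had 8.46, 7.59 and 8.49 FPKM in PANC-1, against 65.9, 69.4 and 69.9 FPKM in MiaPaCa2 (−2.92), whereas its ligand PLAU was not called (0.51). The kallikrein KLK6 was listed at 0 in PANC-1 and averaged 19.7 ± 1.5 FPKM in MiaPaCa2.

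Lineage genes were examined next. Only 8 of 38 ductal and mucinous markers passed the filter, and 4 of these were higher and 0 lower (median 1.08). KRT19, the duct keratin, had 721, 722 and 683 FPKM in PANC-1, against 111.7, 123.2 and 119.3 FPKM in MiaPaCa2 (2.58 ± 0.051). KRT7 had 2.64, 3.2 and 3.7 FPKM in PANC-1, against 0.0575, 0.104 and 0.0607 FPKM in MiaPaCa2 (1.95 ± 0.1), and AGR2, a secretory pathway protein of mucous cells, averaged 15.2 ± 1.1 FPKM in PANC-1 and was listed at 0 in MiaPaCa2. Of 13 tested duct and gut transcription factors, 5 were higher and 2 lower (median 0.48). PDX1, the pancreatic master regulator, had 3.1, 3.65 and 3.52 FPKM in PANC-1, against 0.423, 0.435 and 0.702 FPKM in MiaPaCa2 (1.54), and ONECUT3 was at 3.78. FOXA2, an endoderm factor, had 16.1, 2.78 and 16.4 FPKM in PANC-1 and was listed at 0 in MiaPaCa2. EHF and ONECUT2 (−1.68) were lower, and SOX9, a duct factor, was not called, at 55.4 ± 1.7 FPKM in PANC-1 and 39.4 ± 0.96 FPKM in MiaPaCa2. GATA6, a factor of the classical PDAC subtype, stayed below the filter at 0.601 ± 0.15 FPKM in PANC-1 and 0.151 ± 0.033 FPKM in MiaPaCa2.

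HOX genes, which record position along the body axis, were higher for 12 of 21 and lower for 2 (median 1.21). The HOXC cluster gave 5 of the 6 largest. HOXC10 had 36.2, 22.6 and 35.7 FPKM in PANC-1 and was listed at 0 in MiaPaCa2, as were HOXC9 (14.8 ± 0.66 FPKM in PANC-1) and HOXC11 (4.44 ± 0.13 FPKM in PANC-1). HOXC13 averaged 25.1 ± 1.6 FPKM in PANC-1 and 0.00392 ± 0.0068 FPKM in MiaPaCa2, and HOXC4 was at 2.52. HOXB2, HOXB5 and HOXB6 were measured in both lines and not called. Neural lineage genes were higher for 6 of 10 and lower for 2, with the progenitor filament NES at 33.4, 37.5 and 36.4 FPKM in PANC-1, against 0.457, 0.504 and 0.35 FPKM in MiaPaCa2 (4.68). The neuronal tubulin TUBB3 (−1.78) and the ephrin receptor EPHA4 (−4.46) were lower. EPHA4 kept its call under all 4 other siRNAs. TUBB3 kept it under 0 of them, with differences of −0.83 to 0.65. Other lineages also had lower members in PANC-1: TP63, the basal and squamous factor, had 0.177, 0.224 and 0.284 FPKM in PANC-1, against 13.6, 21.7 and 21.8 FPKM in MiaPaCa2 (−4.00), and among 5 tested endocrine genes PAX6 (−2.54) and SCG2 (−1.98) were lower and 0 were higher.

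Inflammatory genes differed in both directions. Of 40 tested genes of the TNF and NF-kB response, 18 were higher and 8 were lower (median 0.72). ICAM1 and CCL2 led the higher members, with CX3CL1, a chemokine that can stay on the membrane, at 23.2, 26.3 and 72.4 FPKM in PANC-1, against 0.0893, 0.121 and 0.101 FPKM in MiaPaCa2 (5.05 ± 0.4). CCL5 (2.74) was also higher, and CCL20 had 4.96, 6.05 and 4.79 FPKM in PANC-1 and was listed at 0 in MiaPaCa2. RELA, a subunit of NF-kB, had 68.9, 69.3 and 66.0 FPKM in PANC-1, against 18.7, 27.3 and 16.7 FPKM in MiaPaCa2 (1.69 ± 0.17). The lower members were mostly ligands for neutrophils. CXCL5 had 0.317, 0.157 and 0.154 FPKM in PANC-1, against 77.0, 74.9 and 75.8 FPKM in MiaPaCa2 (−5.99 ± 0.069), and CXCL8 had 6.46, 6.39 and 6.52 FPKM in PANC-1, against 65.7, 63.8 and 66.1 FPKM in MiaPaCa2 (−3.15 ± 0.043). CXCL1 (−2.11), CXCL2 (−1.34) and CXCL3 (−1.63), ligands of the same receptor, were lower too, as were CSF3, the granulocyte growth factor (−3.96), and the pentraxin PTX3 (−3.32). IL1B was listed at 0 in PANC-1 and had 7.88, 9.32 and 9.36 FPKM in MiaPaCa2.

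Levels of some of these genes under siControl were unlike those under the other siRNAs. CCL2 was at 41.4 to 63.8 FPKM in the 12 PANC-1 libraries of the other siRNAs, below its siControl range of 214 to 226. ICAM1 was at 82.1 to 146 FPKM there, below its siControl range of 305 to 310. IL1B was at 0.954 to 3.46 FPKM in the 12 MiaPaCa2 libraries of the other siRNAs, below its siControl libraries. The line difference kept its direction in all 4 other comparisons for these 3 genes, and the sizes given are those under the control siRNA. The mRNA levels of the inhibitor NFKBIA (−0.78) and of NFKB2 (0.74) were not called.

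**Figure D3:**
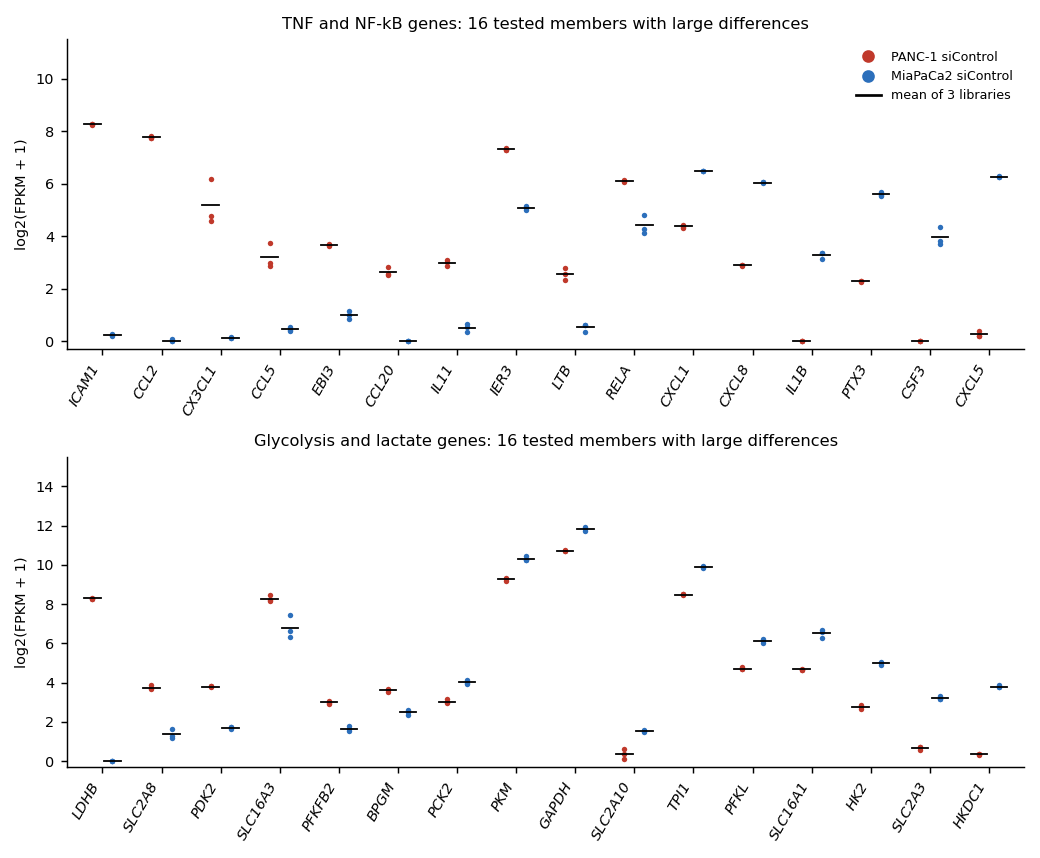
Levels of TNF and NF-kB response genes (top) and glycolysis and lactate genes (bottom) as log2(FPKM + 1), 16 tested members of each list with large line differences. Red points are PANC-1 siControl libraries, blue points MiaPaCa2 siControl libraries and black bars means of 3 libraries. ICAM1, CCL2 and CX3CL1 are higher in PANC-1 and CXCL5, CSF3 and PTX3 lower, while LDHB lies at 0 in MiaPaCa2.

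Promoters of ICAM1 and CXCL5 are shown as the highest and lowest members of this list by difference. The 9-letter word GGNNNTTCC or its reverse complement GGAANNNCC, a form of the NF-kB site, is in capitals. ICAM1 has it once, 186 bases before the start (chr19:10270870-10271169, plus strand, GRCh38.p14, RefSeq), and CXCL5 has it once, 90 bases before the start (chr4:73998628-73998927, minus strand).
ICAM1: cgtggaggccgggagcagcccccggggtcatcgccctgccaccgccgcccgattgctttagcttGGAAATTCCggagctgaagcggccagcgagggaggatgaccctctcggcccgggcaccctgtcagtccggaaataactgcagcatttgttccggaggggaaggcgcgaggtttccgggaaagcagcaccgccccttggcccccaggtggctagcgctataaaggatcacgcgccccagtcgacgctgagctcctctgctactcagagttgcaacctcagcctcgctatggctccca
CXCL5: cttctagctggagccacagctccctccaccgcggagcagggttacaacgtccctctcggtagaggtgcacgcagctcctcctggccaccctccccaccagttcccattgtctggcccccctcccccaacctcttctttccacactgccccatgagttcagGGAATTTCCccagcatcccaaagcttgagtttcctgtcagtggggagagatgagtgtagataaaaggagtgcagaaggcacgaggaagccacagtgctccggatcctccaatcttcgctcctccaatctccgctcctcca
The word stood in 7 of 12 windows of list members higher in PANC-1, in 6 of 7 windows of those lower and in 28 of 44 windows of all tested members (63.6%). The share was 22.9% over the windows of all tested genes and 20.1% over all autosomal windows. Members of both directions thus carried the word.

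Receptors of interleukins and TNF ligands, with toll-like receptors and their adaptors, were higher for 14 of 37 and lower for 9 (median 0.45). PYCARD, the inflammasome adaptor, had 39.7, 38.8 and 34.6 FPKM in PANC-1, against 0.134, 0.262 and 0.529 FPKM in MiaPaCa2 (4.89 ± 0.12), and IL18, the cytokine released through it, was at 4.22. The death domain receptor TNFRSF21 (3.97), TNFRSF14 (3.36) and the RANK receptor TNFRSF11A (3.27) were higher. LTBR had 0.796, 0.733 and 0.607 FPKM in PANC-1, against 80.3, 75.4 and 80.8 FPKM in MiaPaCa2, while TNFRSF12A overlapped (0.03) and the main TNF receptor TNFRSF1A was not called (−0.67).

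Interferon-stimulated genes were higher in PANC-1 for 16 of 39 and lower for 1 (median 0.72). TMEM173, which encodes STING of the DNA-sensing pathway, had 12.99, 13.77 and 16.62 FPKM in PANC-1, against 1.48, 1.08 and 1.34 FPKM in MiaPaCa2 (2.75). The RNA sensor DDX58 (2.09), the transcription factor IRF7 (2.07), the ubiquitin-like ISG15 (1.89), PARP14 (1.97) and OAS3 (1.81) were higher. MHC and antigen processing genes were higher for 12 of 30 and lower for 2 (median 0.71). B2M, the shared light chain of MHC class I, had 930, 977 and 941 FPKM in PANC-1, against 243, 261 and 256 FPKM in MiaPaCa2 (1.90 ± 0.045). HLA-F (3.66), the stress ligand MICB (3.45) and the immunoproteasome subunits PSMB8 (1.79) and PSMB9 (1.91) were higher, while HLA-B (−0.36) and HLA-C (0.68) were not called. HLA, MT1 and other multigene families share reads between members, and their values are uncertain to that extent. Complement and coagulation genes were higher for 8 of 20 and lower for 6, among them the complement inhibitor CD59 (3.83), the protease receptor F2RL1 (2.94), and, lower, the tissue factor inhibitor TFPI (−2.53) and the antiproteases SERPINA1 (−2.21) and SERPINA3 (−2.87).

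Of 37 tested genes of glycolysis and lactate handling, 6 were higher and 9 were lower in PANC-1 (median −0.17). GAPDH had 1671, 1746 and 1692 FPKM in PANC-1, against 3354, 3899 and 3675 FPKM in MiaPaCa2 (−1.09 ± 0.062). The glycolytic enzymes TPI1 (−1.40) and PKM (−1.04) were lower too. HK2, an inducible hexokinase, had 5.4, 6.3 and 5.75 FPKM in PANC-1, against 28.8, 32.3 and 31.3 FPKM in MiaPaCa2 (−2.22), and the hexokinase-like HKDC1 (−3.45) and the glucose transporter SLC2A3 (−2.54) were lower too. ENO1, ALDOA and LDHA, the other lactate dehydrogenase subunit, were not called. LDHA had 449, 425 and 375 FPKM in PANC-1, against 521, 701 and 544 FPKM in MiaPaCa2 (−0.49 ± 0.13), so MiaPaCa2 expressed LDHA and was listed at 0 for LDHB. Of the lactate transporters, SLC16A1 had 24.1, 25.0 and 24.3 FPKM in PANC-1, against 95.8, 103 and 75.6 FPKM in MiaPaCa2 (−1.85), and SLC16A3 had 288, 356 and 294 FPKM in PANC-1, against 77.8, 172 and 99.4 FPKM in MiaPaCa2 (1.49). The pyruvate dehydrogenase kinase PDK2 (2.10) and the sugar transporter SLC2A8 (2.39) were higher.

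Hypoxia-response genes were higher for 10 of 28 and lower for 4 (median 0.27). BNIP3 had 73.0, 72.2 and 75.5 FPKM in PANC-1, against 0.588, 0.5 and 0.575 FPKM in MiaPaCa2. PLOD2, a collagen-modifying hydroxylase (5.08), STC2 (4.92), the vasodilator peptide ADM (2.55) and EPAS1, which encodes HIF-2 alpha (3.50), were higher. The 4 lower members were HIF1A, which encodes HIF-1 alpha (−1.28), the lymphatic growth factor VEGFC (−1.17), the mitophagy receptor BNIP3L (−1.01) and the hormone STC1 (−1.54). HIF1A had 49.15, 49.23 and 49.23 FPKM in PANC-1, against 122.6, 116.9 and 122.1 FPKM in MiaPaCa2. It kept its call under 1 of the 4 other siRNAs, with differences of −1.33 to −0.82. VEGFC and BNIP3L kept theirs under 2 each and STC1 under 0, whereas EPAS1, BNIP3, PLOD2, STC2 and ADM kept theirs under all 4. The collagen hydroxylases P4HA1 and PLOD1 were not called.

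Among genes of the pentose phosphate pathway, NADPH and glutathione, 13 of 47 were higher and 9 were lower (median 0.07). NNT, the mitochondrial transhydrogenase that makes NADPH, had 23.7, 25.1 and 24.1 FPKM in PANC-1, against 0.263, 0.237 and 0.611 FPKM in MiaPaCa2 (4.22 ± 0.11), and the mitochondrial malic enzyme ME3 was at 3.60. NNT is on chromosome 5, at 43602794 to 43707507 in GRCh37. The glutathione transferase GSTM1 was lower, at 0.0114, 0.122 and 0.117 FPKM in PANC-1, against 14.07, 12.96 and 13.87 FPKM in MiaPaCa2 (−3.76), as were the microsomal transferase MGST1 (−2.98) and the quinone reductase NQO1 (−1.11), while the transferase GSTP1 overlapped (−0.03). The export pumps took opposite sides, ABCC3 at 2.90 and ABCC2 at −2.91. Aldehyde, alcohol and xenobiotic enzymes were higher for 6 of 30 and lower for 8 (median −0.28). CES1 had 43.3, 46.7 and 41.4 FPKM in PANC-1, against 0.0418, 0.0262 and 0 FPKM in MiaPaCa2 (5.45), and CYP1B1 was at 5.09. The aldo-keto reductase AKR1C1 (−4.44) and the carbonyl reductase CBR3 (−2.74) were lower along with ALDH1A1, while ALDH1A3, another enzyme that makes retinoic acid, was similar in level, at 117 ± 8.7 FPKM in PANC-1 and 89.2 ± 4.7 FPKM in MiaPaCa2 (0.39).

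Genes of lipid synthesis that differed were nearly always higher in PANC-1. Of 37 tested genes of cholesterol and fatty acid synthesis, 13 were higher and 1 was lower (median 0.83). SCD, the stearoyl-CoA desaturase, had 327, 336 and 335 FPKM in PANC-1, against 86.2, 93.0 and 95.1 FPKM in MiaPaCa2 (1.85 ± 0.049). The desaturases FADS1 (1.90) and FADS2 (2.95), the sterol oxidase MSMO1 (2.27), squalene epoxidase SQLE (1.36) and the cholesterol carrier STARD4 (3.61) were higher. The SCD relative SCD5 was the lower member (−2.08), and FASN (0.92) was not called. Fatty acid oxidation and lipid handling had 9 of 42 higher and 3 lower (median 0.05), with the adipocyte regulator PPARG at 22.1, 22.1 and 22.9 FPKM in PANC-1, against 1.63, 1.51 and 1.53 FPKM in MiaPaCa2 (3.19), the lipase LIPG at 3.27 and BDH1, a ketone body enzyme, at −2.08.

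Nuclear genes of oxidative phosphorylation hardly differed as a list, with 5 of 57 higher and 4 lower (median 0.06). COX6B2, a cytochrome oxidase subunit known from testis, was the largest, with 13.99, 15.85 and 15.91 FPKM in PANC-1, against 0.173, 0.177 and 0.141 FPKM in MiaPaCa2 (3.80), and the ATP synthase subunit ATP5F1A was at −1.31. Of 13 mitochondrially encoded mRNAs, MT-ND6 (1.68) and MT-ATP6 (1.56) were higher and MT-CO3 (−1.31) was lower, although MT-ATP6 and MT-CO3 are neighbours made from the same precursor RNA. MT-ND6 kept its call under 3 of the 4 other siRNAs, and MT-ATP6 and MT-CO3 under 2 each. The MT-ATP6 difference did not keep its direction, at 1.89 under siDDX60L, 1.95 under siMYEOV, 0.65 under siS100A16 and −0.60 under siKCNN4. Metallothioneins, iron and zinc genes were higher for 7 of 26 and lower for 4, with HMOX1, which degrades heme, at 102, 106 and 106 FPKM in PANC-1, against 17.2, 18.3 and 17.5 FPKM in MiaPaCa2 (2.50), the metallothioneins MT1A (1.67) and MT1F (1.97) higher, and MT1E (−3.01) and MT1X (−3.0) lower. MT1F, MT1E and MT1X kept their calls under all 4 other siRNAs. MT1A kept its call under 0 of them, with differences of 0.06 to 0.81. In amino acid metabolism with the ATF4 targets, 7 of 41 were higher and 6 were lower (median −0.14). Stress factors DDIT3 (2.30), ATF3 (1.95) and CHAC1 (1.86) were higher, and GOT2 (−2.05), SHMT1 (−1.93) and the glycine decarboxylase GLDC (−1.69) were lower.

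**Figure D4:**
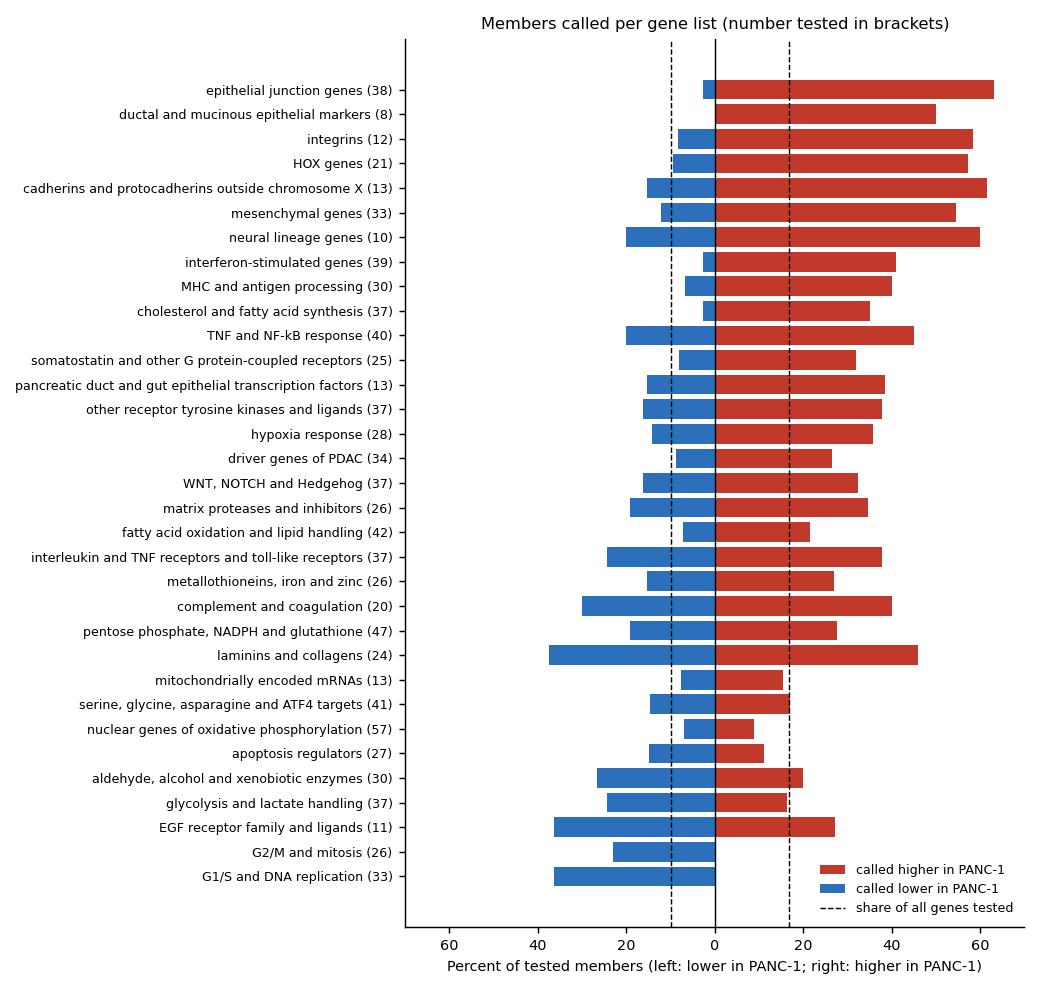
Share of tested members of the gene lists shown that were called higher (red, right) or lower (blue, left) in PANC-1 than in MiaPaCa2, in percent, with the number tested in brackets. Dashed lines mark the shares over all 11227 tested genes, 16.7% higher and 9.85% lower. Epithelial junction genes lie at the top with 63.2% higher, and G1/S genes at the bottom with 36.4% lower and 0% higher.

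Driver genes of PDAC differed in both directions. SMAD4, the shared SMAD of the TGF-beta pathway, was not called (−0.37 ± 0.074). TGFBR2, the type II TGF-beta receptor, had 20.3, 19.7 and 20.1 FPKM in PANC-1, against 0.112, 0.157 and 0.0969 FPKM in MiaPaCa2 (4.23 ± 0.054), and SMAD3, which it activates, was at 3.19. The inhibitory SMAD7 was at 2.23. ARID1B, a chromatin remodeller subunit, had 9.83, 7.97 and 9.2 FPKM in PANC-1, against 0, 0 and 0.0039 FPKM in MiaPaCa2 (3.32), while SMARCA4, the motor of such remodellers, had 9.89, 9.23 and 8.79 FPKM in PANC-1, against 40.2, 44.2 and 44.6 FPKM in MiaPaCa2 (−2.09). Over the 34 tested driver genes, 9 were higher and 3 were lower (median 0.13).

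In the EGF receptor family, 3 of 11 were higher and 4 were lower. The EGFR ligands AREG (−3.39) and EREG (−4.00) were lower, EREG having 3.34, 3.2 and 3.53 FPKM in PANC-1, against 73.5, 64.2 and 68.1 FPKM in MiaPaCa2. ERBB2 was at −1.33, and the ERBB3 ligand NRG1 averaged 4.96 ± 1 FPKM in PANC-1 and was listed at 0 in MiaPaCa2. EGFR itself was not called (0.72). Other receptor tyrosine kinases and ligands were higher for 14 of 37 and lower for 6 (median 0.68). MET, the receptor of hepatocyte growth factor, had 39.3, 31.6 and 37.1 FPKM in PANC-1, against 2.62, 2.88 and 2.23 FPKM in MiaPaCa2 (3.37), and the collagen receptor DDR2 was at −3.68. In the WNT, NOTCH and Hedgehog pathways, 12 of 37 were higher and 6 were lower, with WNT7B at 4.82, the NOTCH ligand DLL3 at 5.34, the WNT coreceptor LRP5 at 2.49 and the Hedgehog transducer SMO at −2.27. Of 25 G protein-coupled receptors, 8 were higher and 2 were lower, the prostaglandin receptor PTGER4 at 3.33 and the adenosine receptor ADORA1 at −3.23 being examples.

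Cell cycle genes were lower in PANC-1 where they differed. Of 33 tested genes of G1/S and DNA replication, 12 were lower and 0 were higher (median −0.76), and of 26 genes of G2/M and mitosis, 6 were lower and 0 were higher (median −0.47). Without replicate 3 of either line, 1 of the 33 was higher. UHRF1, which maintains DNA methylation, had 20.7, 21.2 and 19.7 FPKM in PANC-1, against 80.9, 93.2 and 88.5 FPKM in MiaPaCa2 (−2.04 ± 0.064). The replicative helicase subunits MCM2 (−1.36) and MCM6 (−1.37), GINS2 (−1.78), the hyaluronan receptor HMMR (−2.11), CDC20 (−1.45), FOXM1 (−1.40) and PLK1 (−1.25) were lower. TPX2 was at 0.29 and CCND1 at 0.47, and neither was called. Proliferation was not measured in these files. CDKN1A, the cell cycle inhibitor p21, was higher, at 48.1, 52.3 and 48.4 FPKM in PANC-1, against 12.7, 13.2 and 14.1 FPKM in MiaPaCa2 (1.82), and the kinase PLK2 was lower, at 20.7, 20.9 and 21.9 FPKM in PANC-1, against 324, 328 and 342 FPKM in MiaPaCa2 (−3.91). Apoptosis regulators were higher for 3 of 27 and lower for 4, with BCL2A1 at 5.13 ± 0.32 FPKM in PANC-1 and listed at 0 in MiaPaCa2, and the caspase inhibitor CFLAR (−1.97) and CASP8 (−1.18) lower. CFLAR kept its call under all 4 other siRNAs and CASP8 under 0 of them, with CASP8 differences of −0.84 to −0.40.

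The genes that the study silenced differed in their starting level. MYEOV had 23.2, 23.4 and 25.0 FPKM in PANC-1, against 0.691, 0.985 and 0.734 FPKM in MiaPaCa2 (3.79 ± 0.079, adjusted p = 7.7e-08). KCNN4, a calcium-activated potassium channel, had 14.2, 16.5 and 14.6 FPKM in PANC-1, against 60.6, 61.5 and 62.2 FPKM in MiaPaCa2 (−1.96 ± 0.064, adjusted p = 4.9e-07). S100A16 (−0.73) and DDX60L (−0.35) were not called. Their libraries did not overlap between the lines, which held for 79.8% of all tested genes. S100A16 was at −0.16 under siDDX60L, −0.10 under siMYEOV and 0.84 under siKCNN4. DDX60L was at −0.80 under siMYEOV, −0.29 under siKCNN4 and 0.006 under siS100A16. Under siControl DDX60L was low in both lines, with 1.06, 1.35 and 1.52 FPKM in PANC-1, against 1.91, 1.7 and 2.24 FPKM in MiaPaCa2. FAM83A was below the filter, at up to 0.0197 FPKM in PANC-1 and 0.0126 FPKM in MiaPaCa2.

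Genome position was examined since the rule did not use it. By chromosome, the median difference was highest on chromosomes 11 (0.55) and 15 (0.55) and lowest on chromosomes 21 (−0.73), 14 (−0.42) and 9 (−0.31). On chromosome 21, 40 of 113 genes were lower (35.4%) and 10 were higher, and on chromosome 11, 186 of 677 were higher (27.5%) and 29 were lower. The median of chromosome 21 was −0.54 to −0.73 under each siRNA, and that of chromosome 11 was 0.46 to 0.58. Only 3 runs of at least 3 neighbouring tested genes were on in 1 line, all in PANC-1: ARID5B, RTKN2 and ZNF365 on chromosome 10, MMP2, LPCAT2 and CES1 on chromosome 16, and the schlafen genes SLFN11, SLFN12 and SLFN13 on chromosome 17.

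A stretch of chromosome 19 stood out in a scan of 20 neighbouring genes and was described after its values were seen. From ACTN4 to AKT2, at 39138289 to 40791443 on GRCh37, 35 of 36 tested genes were higher in PANC-1 and 0 were lower, with a median of 2.96. The median under the other siRNAs was 2.83 to 3.14. AKT2, a kinase of the insulin pathway, had 546, 573 and 562 FPKM in PANC-1, against 37.8, 45.8 and 41.6 FPKM in MiaPaCa2 (3.72 ± 0.072). Genes of unrelated functions shared the direction, among them the actin crosslinker ACTN4 (2.75), the transcription elongation factors PAF1 (4.33) and SUPT5H (3.21), the nucleolar methyltransferase FBL (2.97), the proteasome subunit PSMC4 (2.99), the kinase PAK4 (2.53) and the ribosomal protein RPS16 (3.73). HNRNPL was the gene not called, at 0.46. The stretch held 4.83 to 4.93% of the FPKM of PANC-1 libraries and 0.459 to 0.489% of that of MiaPaCa2 libraries. Over the 20 tested genes just before it, 10 were higher and the median was 0.95, and over the 20 just after it, 5 were higher, 2 were lower and the median was 0.04. DNA copy number was not measured in these files.

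**Figure D5:**
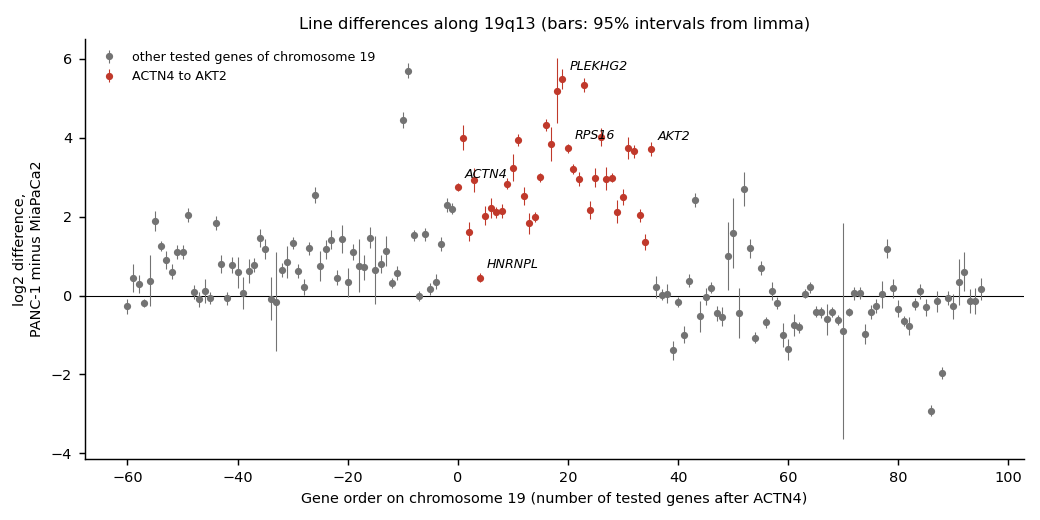
Line difference (PANC-1 minus MiaPaCa2, log2 scale) of tested genes along chromosome 19, in gene order counted from ACTN4, with 95% intervals from limma as bars. Red points are the 36 genes from ACTN4 to AKT2 and grey points the 60 tested genes on either side, and LGALS7B, listed at 0 in MiaPaCa2, is drawn at its fitted value. The red points lie between 0.46 and 5.48, and the points after AKT2 scatter around 0.

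On chromosome 9, MiaPaCa2 was listed at 0 over a contiguous stretch. From SLC24A2 to TUSC1, at 19507450 to 25678442 on GRCh37, all 29 entries were at 0 in all 3 MiaPaCa2 libraries, and in the 12 MiaPaCa2 libraries of the other siRNAs 3 entries were above 0, at no more than 0.0109 FPKM. In PANC-1, 18 of these entries, mostly interferon genes, were also at 0 in all 3 libraries, and 8 were above 0 in all 3. MTAP, an enzyme of methionine salvage, had 4.25, 5.17 and 5.03 FPKM in PANC-1. FOCAD averaged 3.04 FPKM in PANC-1, KLHL9 averaged 3.70 FPKM and TUSC1 averaged 1.17 FPKM. CDKN2A, the p16 tumour suppressor, and CDKN2B were listed at 0 in both lines. The line difference at 9p21 thus lay in the neighbours of CDKN2A and not in CDKN2A itself.

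The same comparison was made under each other siRNA, in libraries that the siControl comparison did not use. Under siDDX60L 1854 genes were higher and 1094 lower, under siMYEOV 1586 and 1217, under siKCNN4 1561 and 1229, and under siS100A16 2030 and 966. Of the 2980 siControl calls, 80.0% were called in the same direction under siDDX60L, 72.6% under siMYEOV, 73.99% under siKCNN4 and 79.4% under siS100A16, which was 80.9%, 77.1%, 79.0% and 79.0% of the calls under each. The differences correlated across genes with r of 0.946, 0.922, 0.926 and 0.942. All 4 siRNAs kept the call for 1674 genes (56.2%), and none did for 198. The kept calls include the 40 largest differences, and CDH1 kept its call under 3 of the 4 siRNAs, KRT7 and PDX1 under 1 each, and GAPDH under 1. By a test of the difference in 1 model over all 30 libraries, the line difference was unlike that under siControl for 161 genes under siDDX60L, 401 under siMYEOV, 372 under siKCNN4 and 226 under siS100A16.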

How the data were processed

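RNA-seq values of 6 siControl libraries were used, with 24 libraries of other siRNAs beside them. The authors deposited 1 table of FPKM with a column per library. TopHat2 2.0.12 and GRCh37 are credited to the processing notes of the submitters. How FPKM were computed, and whether strand was used, is not stated in those sources. The labels name Trizol and a TruSeq RNA kit, and the study's methods another extraction kit and a stranded kit. FPKM divides by the mapped total, so a change in abundant genes shifts the rest, and gives no read depth. Steps between low values gave no clear relative depth.

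Entries on X or Y (879) or of unknown chromosome (5067) were left out. Of 24895 entries, 19974 had Ensembl identifiers, 19828 of them with a position in the GRCh37 annotation. Symbols turned into dates (27) were restored. Genes averaging 1 FPKM or more over the 6 libraries were fitted on log2(FPKM + 1), which understates changes of low genes, with limma 3.58.1 in R 4.3.3 (empirical Bayes with trend, Benjamini-Hochberg adjustment over all 11227 genes). A call needed an adjusted p below 0.05 and a log2 difference of at least 1. The fit was tested on simulated data. Alternatives were another pseudocount, filter, scaling, size of difference and model, a replicate block, and each library left out in turn.

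The comparison and the gene lists were chosen with earlier results of these data known. Named genes were the 20 largest differences in each direction, up to 6 called and 3 uncalled members per list, the 10 highest genes on in 1 line, and a fixed set of PDAC and lineage genes. ITGA3, ITGB4, JUP, CLDN3, GJA1, the CXCL1 to CXCL3 and CXCL8 group, CCL5, CCL20, IL1B, RELA, HLA-B, HLA-C, NQO1, GAPDH, PKM, TPI1, SLC16A1, SLC16A3, LAMA5, SQLE, SMARCA4, MT1A, MT1F, the lower hypoxia members, the lower mesenchymal members, and the genes of the runs, 19q13 and 9p21 were added after their values were seen. Some genes that meet these rules are not reported here.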

Additional observations from a re-analysis of the deposited data

Results flagged for a closer look

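A few genes were called in opposite directions between the lines under siControl and under another siRNA. In each case the difference between the 2 comparisons passed limma's test in 1 model over all 30 libraries. The genes were selected by these opposite calls in the same libraries, so such a pass was likely beforehand and is no separate evidence. STC1, the secreted hormone stanniocalcin, was the clearest, with 32.3, 32.5 and 33.4 FPKM in PANC-1, against 12.76, 13.13 and 13.98 FPKM in MiaPaCa2, under siKCNN4 (1.24 ± 0.048). Under siControl STC1 had 2.41, 2.37 and 2.17 FPKM in PANC-1, against 8.25, 9.35 and 8.39 FPKM in MiaPaCa2 (−1.54 ± 0.069), and the 2 differences were 2.78 ± 0.091 apart (adjusted p = 2.8e-16).

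The transcription factor MYC had 3.87, 4.15 and 2.55 FPKM in PANC-1, against 4.98, 34.3 and 30.9 FPKM in MiaPaCa2, under siMYEOV, so the MiaPaCa2 libraries were far apart. Under siControl MYC had 11.6, 22.7 and 10.6 FPKM in PANC-1, against 5.42, 6.09 and 5.16 FPKM in MiaPaCa2, and the differences were −3.29 ± 1.0 apart (adjusted p = 0.012). The forkhead factor FOXC1 under siMYEOV had 1.49, 1.76 and 1.97 FPKM in PANC-1, against 5.27, 5.58 and 4.78 FPKM in MiaPaCa2. Under siControl FOXC1 had 2.93, 2.81 and 3.23 FPKM in PANC-1, against 1.07, 0.581 and 0.982 FPKM in MiaPaCa2, and the differences were −2.28 ± 0.49 apart (adjusted p = 0.00068).

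C4orf48, which encodes a small peptide, was higher in PANC-1 under siControl (1.21 ± 0.35) and lower under siDDX60L (−1.56 ± 0.21) and siMYEOV (−1.20 ± 0.44), which were −2.77 (adjusted p = 0.0046) and −2.41 (adjusted p = 0.0093) apart from it. AC093668.3 had 5.87, 15.7 and 6.94 FPKM in PANC-1, against 0, 5.58 and 0 FPKM in MiaPaCa2, under siControl, and the difference under siMYEOV was −4.40 apart (adjusted p = 0.00099). Its replicates spread widely in both lines.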

How the results depend on the processing

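The counts of genes that differed depended on the size required more than on the model. With a log2 difference of at least 0.5, 3391 genes were higher and 2643 lower, and with a mean of at least 5 FPKM 1144 were higher, since fewer genes were tested. Leaving out 1 library gave 1867 to 1894 genes higher and 1094 to 1108 lower. Same-numbered replicates did not deviate together (r of 0.0095, 0.0023 and −0.096 across genes), and with a replicate block 1872 genes were higher and 1103 lower. Leaving out 1 library, the genes that differed numbered 2948 to 2999 under siDDX60L, 2793 to 2821 under siMYEOV, 2775 to 2818 under siKCNN4 and 2981 to 2993 under siS100A16, and the genes on in 1 line 132 to 138 for PANC-1 and 27 to 31 for MiaPaCa2. Scaling by the median of ratios gave 1784 higher and 1205 lower, which is 59.7% of calls higher against 62.9%, and a median difference of 0.02 over all genes. The other alternatives stayed within 1.5 times of these counts, as did all those of the line difference under the other siRNAs.

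Of 349 named genes checked, 0 that were called turned direction in 15 alternatives, while 9 uncalled genes near 0 changed sign in at least 1. Alternatives that changed only the genes tested, the trend, the block or the model leave the difference of a gene as it is. Only another scaling, another pseudocount or a library left out could turn a direction. Calls were gained by 7 genes in at least 1 alternative. Only ATP5PO, an ATP synthase subunit, and BAX lost a call, ATP5PO without PANC-1 replicate 1 (−0.98) and BAX without MiaPaCa2 replicate 1 (−0.99) or PANC-1 replicate 2 (−0.97). Of the list counts and medians, 1684 values were close to those reported and 115 moved, 41 of them with a mean of at least 5 FPKM, 26 without a filter, 20 with a pseudocount of 0.1 and 28 with 1 library left out. Leaving out 1 library moved 5 list counts: MHC genes lower were 1 in place of 2 without MiaPaCa2 replicate 2, PANC-1 replicate 2 or PANC-1 replicate 3, and G1/S genes higher were 1 in place of 0 without replicate 3 of either line. FPKM without read totals limits low genes, and genes listed at 0 carry no fold.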

Other observations

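In the scan of 20 neighbouring genes, other stretches differed less than 19q13. The highest medians elsewhere were on chromosome 19 from ZNF600 to CACNG6 (1.5), on chromosome 9 from RUSC2 to ZBTB5 (1.39) and on chromosome 11 from IGF2 to TRIM5 (1.34). The lowest were on chromosome 8 from INTS10 to TNFRSF10A (−1.64) and on chromosome 12 from APOLD1 to GOLT1B (−1.27) and from P3H3 to PEX5 (−1.24). The last of these holds TPI1, whose level was also lower in PANC-1. These windows were picked for their medians from all windows of the genome, so the medians are descriptions.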
